A study of Mus musculus with 3 samples.

Results

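Of the 6142 sorted lung fibroblasts in the deposited table, 129 carry a name with S phase in it: 39 cells named DivFB-S and 90 named DivFB-S/G2M. They were taken by these deposited names alone, from all 3 libraries, and are called S-named cells here. A further 118 dividing cells are named DivFB-G2M and serve as the comparison, together with the resting, that is non-DivFB, types of the same libraries. The cells came from lungs of mouse pups at postnatal day 7, heterozygous for an inducible Cre recombinase in the Fgf18 gene (Fgf18CreERT2/+), a tdTomato reporter in the ROSA locus (ROSA TDTomato/+) and a green fluorescent reporter in the Pdgfra gene (Pdgfra EGFP/+). All pups received tamoxifen from postnatal day 2 to 5, which lets the Cre enzyme switch on tdTomato in cells where Fgf18 is active at that time and in their progeny. Live cells were sorted on the 2 colours into a GFP-low tdT-negative, a GFP-high tdT-negative and a GFP-high tdT-high population. Each gave 1 library, called here the GFP-low, the tdT-negative (always the GFP-high one) and the tdT-high library, so there is no replicate and no test was made. The names were given from these same cells by a procedure not given in the sources used here, so that every difference between names below is a description of what the names hold.

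A dividing cell copies its DNA once, in S phase, and separates the copies in mitosis after the gap called G2. Genes for origin licensing and the replication fork are switched on by E2F transcription factors as the cell leaves G1, histone genes are transcribed while DNA is being copied, and genes for the spindle and kinetochore peak in G2 and mitosis, many of them through CHR and CCAAT promoter elements. In the lung of a newborn mouse, fibroblasts and myofibroblasts still divide while the alveoli form. Pclaf binds the sliding clamp PCNA at the fork, Rrm2 and Tyms make deoxynucleotides, Top2a untangles chromosomes, and Mki67 coats them in mitosis.

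S-named cells were found mainly in the tdT-negative library, with 99 of 3347 cells, or 2.96% (exact Clopper-Pearson 95% interval 2.41 to 3.59%). The tdT-high library held 27 of 1511 cells, or 1.79% (1.18 to 2.59%), and the GFP-low library 3 of 1284, or 0.234% (0.0482 to 0.681%). All intervals here and below cover counting error only and not the spread between animals or sorts. DivFB-S made up 28 cells of the tdT-negative library (0.837%, 0.557 to 1.21%) and 11 of the tdT-high library (0.728%, 0.364 to 1.30%), and these intervals overlap widely. DivFB-S/G2M made up 71 cells (2.12%, 1.66 to 2.67%) and 16 cells (1.06%, 0.606 to 1.71%), and here the interval of the tdT-high library reaches only just into that of the tdT-negative one. No DivFB-S cell was seen among the 1284 GFP-low cells, and the exact interval of this share reaches up to 0.287%. Among DivFB cells only, S-named cells were 52.1% (44.8 to 59.4%) in the tdT-negative and 64.3% (48.0 to 78.4%) in the tdT-high library. MyoFB types are 5.14%, 79.4% and 96.5% of the GFP-low, tdT-negative and tdT-high library. The part of the sort gates in the shares of S-named cells was not tested.

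**Figure D1:**
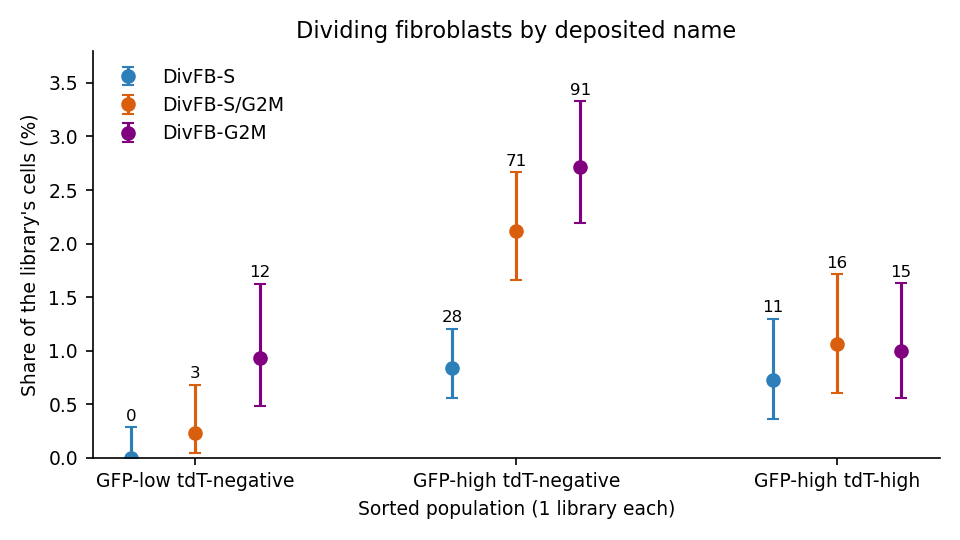
Share of each library's cells (y axis, percent) that carries each of the 3 DivFB names, by sorted population (x axis, 1 library each); points are shares, bars exact 95% intervals for counting error, and the number above each bar is the number of cells. DivFB-S/G2M stands at 2.12% in the tdT-negative and 1.06% in the tdT-high library, while DivFB-S stands at 0.837% and 0.728%.

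The S-named cells were deeply sampled. In the tdT-negative library the median cell held 24123 UMIs (unique molecules counted) under the name DivFB-S and 30940 under DivFB-S/G2M, against 19179 under DivFB-G2M and 19629 in the whole library. In the tdT-high library the medians were 30911, 33104 and 24601 for the 3 names and 22401 in the whole library. Median mitochondrial shares in the tdT-negative library were 2.52%, 2.16% and 2.66% in the order DivFB-S, DivFB-S/G2M, DivFB-G2M. The 10% of the library's cells with the most UMIs begin at 30379 UMIs, and 37 of the 71 DivFB-S/G2M cells lay above this value, against 6 of 28 DivFB-S and 8 of 91 DivFB-G2M cells. Levels are therefore given relative to the UMIs of the same cells, as counts per 1000000 UMIs (CPM) of the summed cells of a name, and shares of cells with a UMI also after thinning every cell to 5000 UMIs. Libraries shared 3 cell barcodes at most, and none of them belonged to an S-named cell. Unless another library is named, values are from the tdT-negative library, in the order DivFB-S, DivFB-S/G2M, DivFB-G2M.

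The 5 marker genes were far above the level of resting immature myofibroblasts (MyoFB-IMR) in both S names, but they did not move together. Pclaf (chr9:65890237-65903266, GRCm38, plus strand) stood at 188 CPM (157 to 223), 441 CPM (413 to 470) and 131 CPM (114 to 148), and at 3.48 CPM in MyoFB-IMR. It had a UMI in 53.6%, 95.8% and 76.9% of cells, and after thinning in 39.3%, 80.3% and 41.8%, against 5.62% and 1.74% in MyoFB-IMR cells, whose median depth was 19460.5 UMIs. Pclaf was thus highest in DivFB-S/G2M, and DivFB-S exceeded DivFB-G2M by a ratio of only 1.44 (1.15 to 1.79). Rrm2 (chr12:24708241-24714146, plus strand), a subunit of ribonucleotide reductase, stood at 134 CPM (108 to 164), 164 CPM (147 to 182) and 15.9 CPM (10.7 to 22.8), with 2.01 CPM in MyoFB-IMR. Tyms (chr5:30058202-30073617, minus strand), thymidylate synthase, stood at 148 CPM (121 to 180), 116 CPM (102 to 132) and 17.0 CPM (11.6 to 24.1), with 5.35 CPM in MyoFB-IMR. These nucleotide genes set both S names apart from DivFB-G2M and differed little between the S names in this library.

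Mki67 and Top2a, the other markers, separated DivFB-S from DivFB-S/G2M. Mki67 (chr7:135689784-135716361, minus strand) stood at 132 CPM (107 to 163), 874 CPM (835 to 915) and 496 CPM (465 to 530), and at 22.9 CPM in MyoFB-IMR. After thinning it had a UMI in 21.4% of DivFB-S, 98.6% of DivFB-S/G2M and 84.6% of DivFB-G2M cells, against 9.30% of MyoFB-IMR cells. Top2a (chr11:98992943-99024189, minus strand) stood at 166 CPM (137 to 199), 1272 CPM (1224 to 1321) and 138 CPM (121 to 156), and at 6.18 CPM in MyoFB-IMR. DivFB-S/G2M was the highest name for both genes, and DivFB-S the lowest for Mki67.

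The same markers in the tdT-high library were measured over 11, 16 and 15 cells. There Pclaf stood at 105, 501 and 73.6 CPM, Rrm2 at 59.1, 227 and 22.7 CPM, and Tyms at 128, 191 and 34.0 CPM. Mki67 stood at 69.0, 641 and 663 CPM and Top2a at 158, 1169 and 235 CPM. DivFB-S/G2M was the highest name for Pclaf, Rrm2, Tyms and Top2a in that library, whereas Tyms was highest in DivFB-S in the tdT-negative one. The 3 GFP-low DivFB-S/G2M cells stood at 131 CPM for Pclaf, 32.8 CPM for Rrm2, 21.9 CPM for Tyms, 1116 CPM for Mki67 and 1959 CPM for Top2a. The markers were those of dividing cells under both names, with Mki67 and Top2a lower in DivFB-S than in DivFB-S/G2M in both GFP-high libraries.

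Promoters that hold matches, of genes from 3 groups that separate the names, are shown to make the elements named above visible. They are the 250 bases before the annotated start, in the gene's direction, from the RefSeq promoter table on GRCm38.p6. Capitals mark E2F matches (TTTCCCGC, TTTCGCGC, TTTGCCGC or TTTGGCGC) in Mcm5 and Mcm6, subunits of the replicative helicase that were highest in DivFB-S in the tdT-negative library. In Cdc20, the activator of the anaphase-promoting complex, and Ube2c, its ubiquitin-conjugating enzyme, capitals mark CHR (TTTGAA or TTCGAA) and CCAAT matches, and both genes were low in DivFB-S only. In H1f5, a linker histone gene that was highest in DivFB-S/G2M, capitals mark CCAAT matches only, and other elements, CHR included, are left in lower case. Both strands were searched, so that a match on the other strand reads as its reverse complement, and overlapping matches run together.
Mcm5 (chr8:75109259-75109508, plus strand): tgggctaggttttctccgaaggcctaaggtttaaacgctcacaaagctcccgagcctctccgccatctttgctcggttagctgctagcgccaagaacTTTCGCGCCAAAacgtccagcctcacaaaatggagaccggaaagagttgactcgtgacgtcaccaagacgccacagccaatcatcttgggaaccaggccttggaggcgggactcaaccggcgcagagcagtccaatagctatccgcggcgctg
Mcm6 (chr1:128359706-128359955, minus strand): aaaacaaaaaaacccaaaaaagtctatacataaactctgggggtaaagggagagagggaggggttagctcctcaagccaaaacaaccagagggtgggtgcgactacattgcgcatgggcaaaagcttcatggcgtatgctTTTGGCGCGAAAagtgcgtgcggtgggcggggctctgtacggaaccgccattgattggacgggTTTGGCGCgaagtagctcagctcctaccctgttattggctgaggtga
Cdc20 (chr4:118437344-118437593, minus strand): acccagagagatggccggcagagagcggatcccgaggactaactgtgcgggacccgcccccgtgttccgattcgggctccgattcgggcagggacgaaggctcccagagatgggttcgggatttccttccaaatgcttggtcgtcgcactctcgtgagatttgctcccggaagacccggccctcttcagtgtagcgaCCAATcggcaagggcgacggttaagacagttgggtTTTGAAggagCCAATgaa
Ube2c (chr2:164769679-164769928, plus strand): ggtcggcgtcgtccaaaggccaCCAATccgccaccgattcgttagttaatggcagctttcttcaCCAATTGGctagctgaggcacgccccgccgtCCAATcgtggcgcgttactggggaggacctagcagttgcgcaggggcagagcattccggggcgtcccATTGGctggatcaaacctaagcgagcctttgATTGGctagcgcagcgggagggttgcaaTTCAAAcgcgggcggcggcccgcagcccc
H1f5 (chr13:21780626-21780875, minus strand): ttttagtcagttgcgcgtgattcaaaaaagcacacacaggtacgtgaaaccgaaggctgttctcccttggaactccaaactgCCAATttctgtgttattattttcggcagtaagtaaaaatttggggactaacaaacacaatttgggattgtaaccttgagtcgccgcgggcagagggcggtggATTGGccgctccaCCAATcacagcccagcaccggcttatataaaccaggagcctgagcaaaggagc

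Mcm5 holds 2 overlapping E2F matches, beginning 153 and 149 bases before the start, and Mcm6 holds 3, at 110, 106 and 47 bases. Cdc20 has its CHR match 18 bases before the start, between CCAAT matches at 53 and 8 bases, and Ube2c has its CHR match at 29 bases and 6 CCAAT matches. H1f5 has CCAAT matches at 168, 66 and 53 bases before the start. Other promoters searched are not shown. Rrm2, Tyms, Pclaf, Mcm3 and Pcna held no E2F match in this window, while Hells held 1. Ccnb1, Plk1, Cenpa and Cenpf held CCAAT matches but no CHR match, while Ccnb2, Top2a and Mki67 held both. Over the whole lists, an E2F match was in 19 of the 96 promoters found for the 118 S phase and repair genes (19.8%), in 7 of 17 for origin licensing (41.2%), in 5 of 70 for mitosis genes (7.14%) and in 8 of 53 for histone genes (15.1%). In the 27025 promoters searched (the first listed start of each gene, without chromosome 18) the share was 1.91%. In the 17013 of them with a gene of the deposited counts it was 2.59%. A CHR match together with a CCAAT match was in 19 of 70 mitosis promoters (27.1%), 24 of 53 histone promoters (45.3%) and 10 of 96 S phase and repair promoters (10.4%). It was in 6.21% of the 27025 and 5.52% of the 17013. A match is a description of these letters, and not a shown binding site.

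DivFB-S cells were marked by genes that prepare and start DNA copying. Mcm3, a helicase subunit, stood at 157, 48.6 and 3.29 CPM, which made DivFB-S 47.7 times (21.2 to 133) as high as DivFB-G2M. Mcm2 stood at 58.2, 22.9 and 1.65 CPM, Mcm4 at 151, 55.3 and 11.5 CPM, Mcm5 at 100, 47.2 and 6.58 CPM, and Mcm6 at 162, 46.7 and 15.9 CPM. These 5 helicase genes had the same order of names in this library, highest in DivFB-S and lowest in DivFB-G2M. In the tdT-high library Mcm2 stood at 62.4, 27.6 and 5.66 CPM, Mcm3 at 158, 51.3 and 8.49 CPM, Mcm4 at 115, 57.2 and 5.66 CPM, and Mcm6 at 125, 72.9 and 8.49 CPM. Mcm5 differed there, at 55.8, 71.0 and 2.83 CPM, with DivFB-S/G2M highest. Cdc6, which loads the helicase, stood at 27.6, 8.58 and 1.10 CPM and its partner Cdt1 at 43.6, 19.1 and 3.29 CPM. Dbf4, which activates the kinase that fires origins, had the other order, at 13.1, 124 and 54.3 CPM. Gmnn, the inhibitor of Cdt1, stood at 100, 107 and 37.3 CPM and so did not follow the helicase genes either. Cyclin E2 (Ccne2), which drives entry into S phase, stood at 62.6, 26.7 and 10.4 CPM, and cyclin E1 (Ccne1) at 17.5, 14.8 and 1.65 CPM. E2f1, an activator of S phase genes, stood at 43.6, 15.3 and 3.84 CPM, whereas the repressors E2f7 (50.9, 95.3 and 1.65 CPM) and E2f8 (8.73, 53.4 and 8.23 CPM) were highest in DivFB-S/G2M.

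Genes that act at the running fork, and others given with them here, were higher in both S names than in DivFB-G2M. Pcna, Pola1, Lig1 and Hells were highest in DivFB-S. Pcna, the sliding clamp, stood at 255, 131 and 35.7 CPM, and in the tdT-high library at 309, 248 and 51.0 CPM. Pola1, the catalytic subunit of the priming polymerase, stood at 303, 195 and 27.4 CPM, and Lig1, which joins Okazaki fragments, at 183, 105 and 14.8 CPM. Hells, a chromatin remodeler that acts with DNA methylation, stood at 265, 92.9 and 18.7 CPM, a ratio of 14.2 (9.80 to 21.1) between DivFB-S and DivFB-G2M. Dnmt1, the maintenance DNA methyltransferase, was alike in both S names at 108 and 105 CPM, with 23.0 CPM in DivFB-G2M. The thymidine kinase Tk1 (53.8, 85.8 and 3.29 CPM) was likewise high in both. Slfn9, of the Schlafen family, stood at 81.5 and 22.4 CPM in the S names and at 0.549 CPM in DivFB-G2M, 1 UMI, which gives a ratio of 149 with a wide interval (25.6 to 5970). Slfn9 in the tdT-high library stood at 19.7, 45.3 and 5.66 CPM, so its order among the S names was the opposite there.

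Counted over genes, DivFB-S differed from DivFB-G2M in both directions. A gene was counted when the higher name had 50 CPM or more and a UMI in 25% or more of its cells, with a 2-fold or larger difference of CPM + 1, and an interval of the ratio that leaves out 1. Of 4494 genes with enough signal, 241 (5.36%) were counted higher in DivFB-S and 209 (4.65%) lower, and the median log2 ratio over 12123 genes with at least 10 UMIs was -0.07. Of the 241 higher genes, 54 were in the S phase and repair lists, 4 in the mitosis lists and 2 in the histone list, and 181 in none of these. Of 13 origin licensing genes with enough signal (22 in the list), 11 were higher and 1, Dbf4, lower, with a median log2 ratio of 2.34. The replication fork list (29 genes) had 15 of 19 higher (median 1.91), and nucleotide supply (16 genes) 9 of 10 (median 1.84). Chromatin assembly (14 genes) had 9 of 11 higher (median 1.73) and fork repair (24 genes) 6 of 7 (median 2.44). Among the latter was the recombination gene Brca1 (66.9 against 6.03 CPM). Rmi2, a partner of the Bloom helicase, stood at 71.3 against 2.74 CPM.

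**Figure D2:**
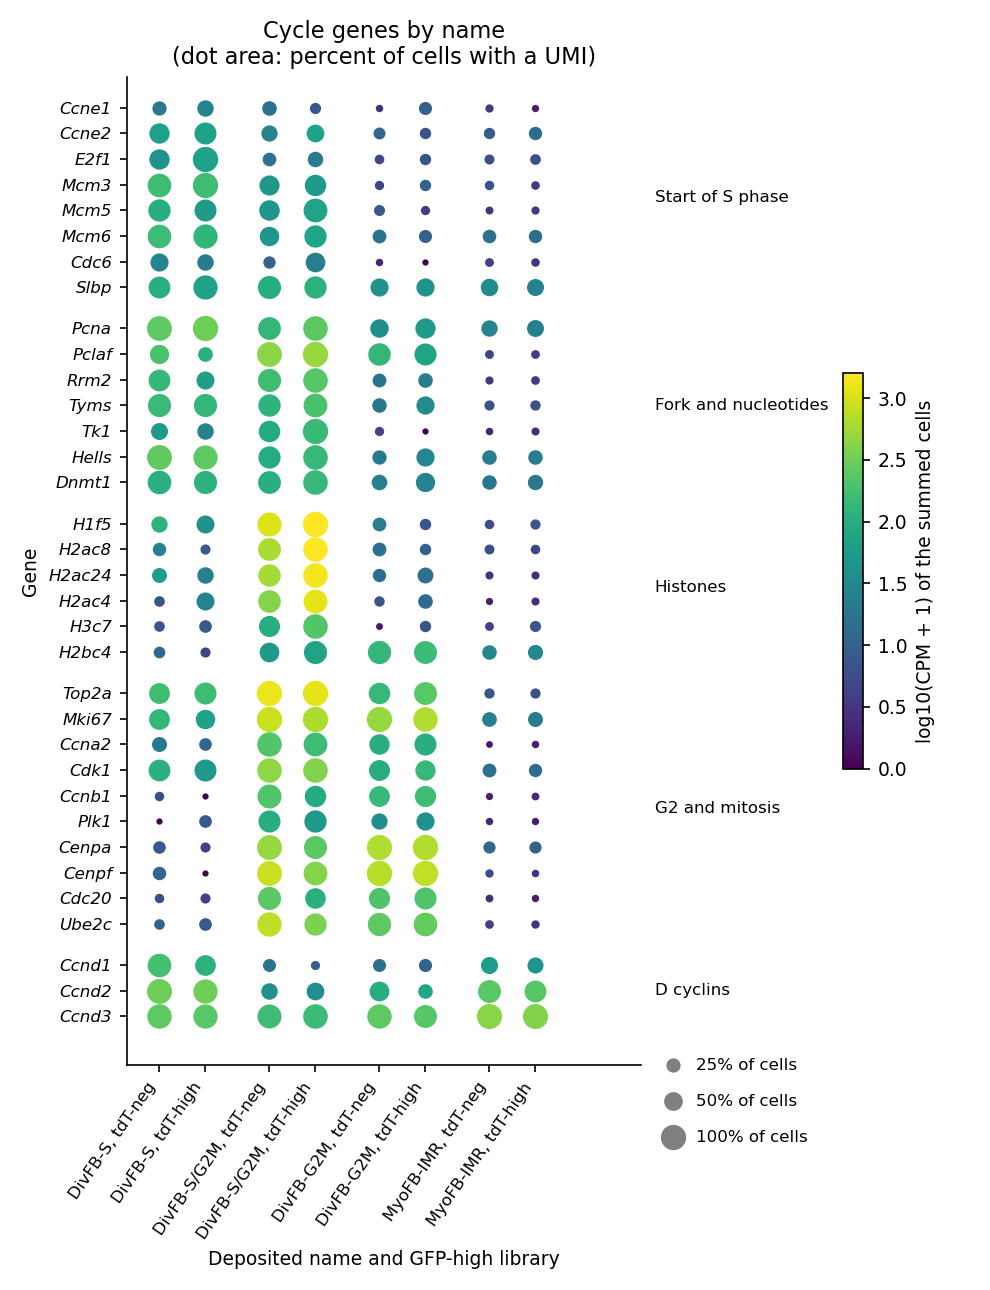
Level of 34 cycle genes (y axis, grouped by role) in each DivFB name and in resting MyoFB-IMR cells of both GFP-high libraries (x axis); colour is log10(CPM + 1) of the summed cells and dot area the percent of cells with a UMI. In the tdT-negative library helicase genes are brightest in DivFB-S and histone genes other than H2bc4 in DivFB-S/G2M; Ccnd1 and Ccnd2 are brighter in DivFB-S than in the other DivFB names.

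Histone genes were the group that set DivFB-S/G2M apart from both other names. Replication-dependent histone transcripts end in a stem-loop and mostly lack a poly(A) tail, while the kit used here primes on poly(A), so the values count only the transcripts it captured. Reads of near-identical histone copies may also have been split between genes, which makes the value of a single copy uncertain. H1f5 stood at 116, 1074 and 20.8 CPM, and in the tdT-high library at 39.4, 2027 and 5.66 CPM. H2ac8, a core histone H2A gene, stood at 24.7, 607 and 13.2 CPM, and in the tdT-high library at 6.57, 1565 and 8.49 CPM. DivFB-S/G2M was the highest name in both libraries, and H1f5 was 51.5 times (37.4 to 73.0) as high as in DivFB-G2M. H2ac4 stood at 5.82, 404 and 5.49 CPM, H2ac24 at 58.2, 594 and 12.6 CPM, and H3c7 at 5.82, 100 and 0.549 CPM. H3c2 stood at 80.1 CPM in DivFB-S/G2M and at 0 in DivFB-G2M, which made it at least 48.7-fold higher against a floor of 3 counts (the exact interval of the ratio begins at 39.1). The 10 genes with the highest ratios of DivFB-S/G2M over DivFB-G2M were all histone genes.

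Over the histone list of 61 genes, the summed level was 735 CPM in DivFB-S, 7100 CPM in DivFB-S/G2M and 715 CPM in DivFB-G2M, and 362 CPM in MyoFB-IMR. Of 26 histone genes with enough signal, 26 were lower in DivFB-S than in DivFB-S/G2M (median log2 ratio -3.19), where 297 of 4462 genes (6.66%) were lower and 95 (2.13%) higher, with a median over 12321 genes of 0.02. In DivFB-S/G2M over DivFB-G2M, 24 of 26 were higher and 1 lower (median 3.31), where 295 of 4489 genes (6.57%) were higher and 35 (0.780%) lower, with a median over 13299 genes of -0.10. The exception was H2bc4, at 10.2, 53.4 and 134 CPM, which was 2.52 times (2.01 to 3.18) as high in DivFB-G2M as in DivFB-S/G2M. H1f2 stood at 11.6, 137 and 140 CPM, alike in both names with G2M in them. H2bc4 stood in the tdT-high library at 3.28, 71.0 and 150 CPM and was again highest in DivFB-G2M.

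Genes of mitosis were low in DivFB-S and high in the other names. Cyclin B1 (Ccnb1), which drives entry into mitosis, stood at 4.36, 209 and 142 CPM, with 0.932 CPM in MyoFB-IMR. Cdc20 stood at 4.36, 246 and 204 CPM, which made it 46.6 times (15.8 to 227) as high in DivFB-G2M and 56.3 times (19.2 to 274) as high in DivFB-S/G2M as in DivFB-S. Plk1, a mitotic kinase, had no UMI in the 28 DivFB-S cells and stood at 97.7 and 34.6 CPM in the other names, so DivFB-S/G2M was at least 22.4-fold higher against the same floor (the exact interval begins at 18.0). Cenpa, the centromeric histone, stood at 7.27, 489 and 665 CPM, and Cenpf, a kinetochore protein, at 10.2, 858 and 724 CPM, with 10.7 and 4.17 CPM in MyoFB-IMR. Ube2c stood at 8.73, 754 and 252 CPM, and Hmmr, which acts at the spindle, at 10.2, 361 and 200 CPM. As ratios, DivFB-S/G2M and DivFB-G2M were closer to each other than either was to DivFB-S for these genes. Aurkb, the kinase of the chromosome passenger complex (17.5, 174 and 14.8 CPM), and Esco2, a cohesin acetyltransferase of S phase (24.7, 147 and 6.03 CPM), were instead high in DivFB-S/G2M alone. Cdk1, the mitotic kinase subunit, stood at 109, 453 and 98.2 CPM and so did not separate DivFB-S from DivFB-G2M in this library. Cdk1 stood in the tdT-high library at 52.5, 388 and 139 CPM and was counted lower in DivFB-S. Cyclin A2 (Ccna2) stood at 18.9, 214 and 99.8 CPM.

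Among spindle and cytokinesis genes (30 in the list), 29 of 29 with enough signal were lower in DivFB-S than in DivFB-S/G2M (median log2 ratio -3.34), and 19 of 21 lower than in DivFB-G2M (median -2.14). Kinetochore and passenger genes (24) were lower in 23 of 23 against DivFB-S/G2M (median -2.66) and in 9 of 15 against DivFB-G2M (median -1.02). Mitotic cyclins and kinases (20) were lower in 18 of 19 (median -3.43) and in 6 of 8 (median -2.05). DivFB-S/G2M was in turn higher than DivFB-G2M in 17 of 29 spindle genes (median 1.14), 15 of 23 kinetochore genes (median 1.42) and 12 of 19 mitotic cyclins and kinases (median 1.13). None of these members was counted lower in this library, and of all 4489 genes 6.57% were higher and 0.780% lower. In the tdT-high library 8 of 28 spindle genes were higher and 1 lower, and 13 of 23 kinetochore genes higher and 1 lower. Mitotic cyclins and kinases were higher there in 9 of 17 and lower in 0. Of all 4604 genes there, 10.7% were higher and 6.89% lower. Ccnb1 and Ccnb2 had lower levels in DivFB-S/G2M than in DivFB-G2M in that library, but were not counted. Of the S phase lists, read beside 2.13% of all genes higher and 6.66% lower, licensing had 5 of 13 genes higher in DivFB-S than in DivFB-S/G2M, which are Mcm2, Mcm3, Mcm4, Mcm5 and Mcm6, and 1, Dbf4, lower (median log2 ratio 0.72). Chromatin assembly had 4 of 12 higher (median 0.23) and nucleotide supply 2 of 10 (median 0.44), with none lower. Fork genes had 1 of 20 higher and 1, Pclaf, lower (median 0.38), G1/S regulators 1 of 6 in each direction (median 0.26), and repair 0 of 9 (median -0.08). The tdT-high library gave other counts, where 5.5% of 4525 genes were higher and 8.64% lower. There licensing had 2 of 15 higher and 2 lower, G1/S regulators 1 of 8 higher and 3 lower, and repair 2 of 13 higher and 5 lower. Fork genes had 2 of 20 lower, nucleotide supply 3 of 11 and chromatin assembly 3 of 13, with none higher, so the counted genes of nucleotide supply and chromatin assembly had opposite directions in the libraries. Chromosome condensation genes (24) were mixed against DivFB-G2M, with 4 of 19 higher in DivFB-S and 8 lower, and in the tdT-high library with 1 of 19 higher and 12 lower, beside 8.46% and 8.17% of 4553 genes there. The 4 were the condensin genes Ncapd3 (108 against 36.8 CPM), Ncapg2 (77.1 against 25.8 CPM) and Ncaph (53.8 against 14.3 CPM), and the heterochromatin gene Cbx5 (218 against 68.6 CPM).

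**Figure D3:**
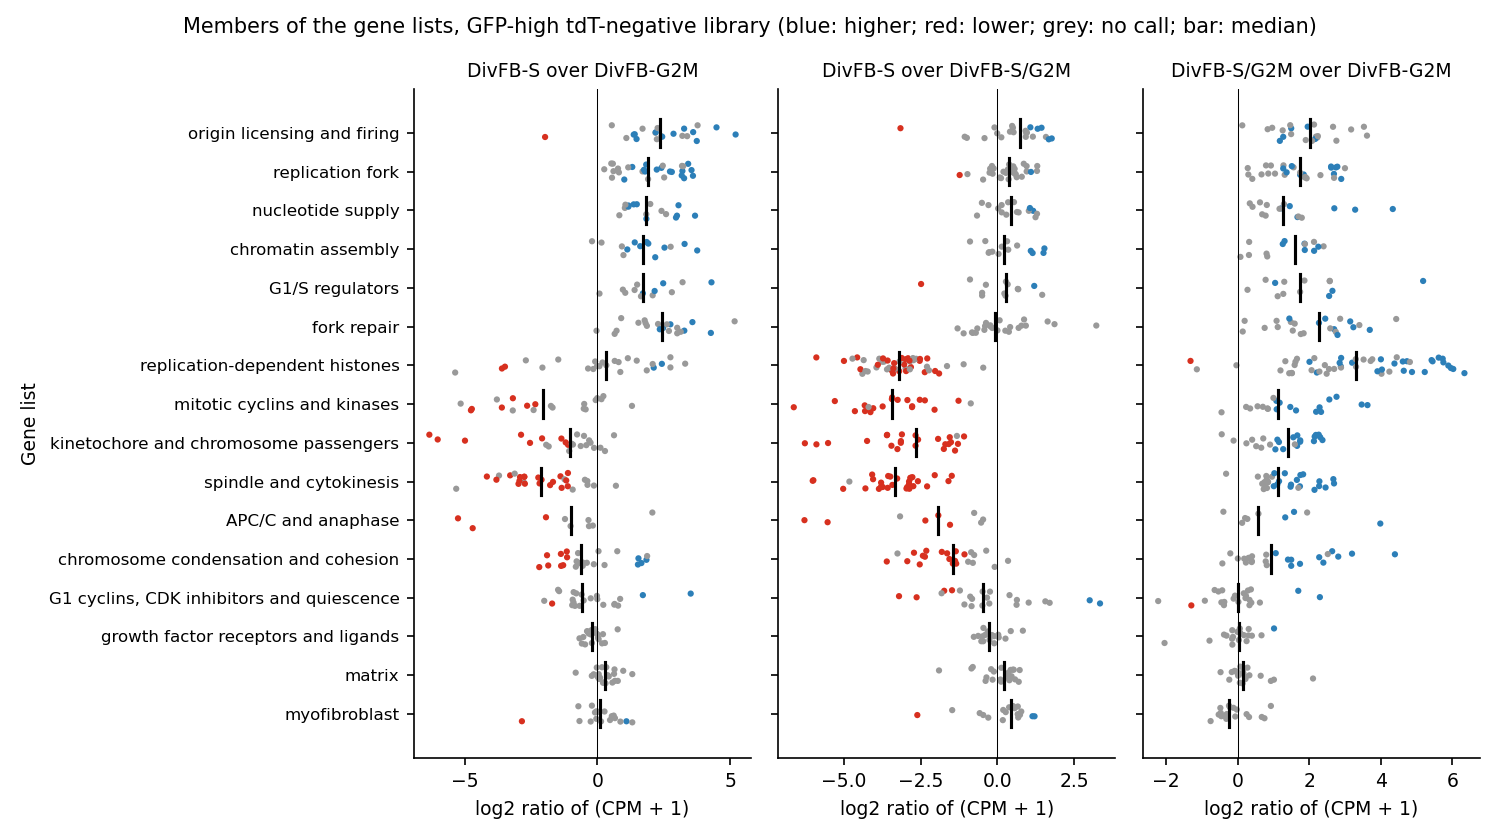
Each point is a gene with at least 10 UMIs, by list (y axis), at its log2 ratio of (CPM + 1) between DivFB names in the tdT-negative library (x axis, 1 panel per comparison); blue genes were counted higher, red lower, grey neither, and the bar is the list's median. S phase lists lie right of 0 in both comparisons with DivFB-G2M, and histone and mitosis lists lie far left in DivFB-S over DivFB-S/G2M, where the spindle median is -3.34.

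D cyclins, which link growth signals to the start of the cycle, were a second feature of DivFB-S. Cyclin D1 (Ccnd1) stood at 173, 16.2 and 14.3 CPM, against 58.4 CPM in MyoFB-IMR. The tdT-high library gave 112, 7.89 and 8.49 CPM, against 44.4 CPM in MyoFB-IMR. Cyclin D2 (Ccnd2) stood at 313, 38.1 and 94.9 CPM, against 235 CPM in MyoFB-IMR, and in the tdT-high library at 312, 37.5 and 79.3 CPM, against 224 CPM. In both libraries DivFB-S was above resting MyoFB-IMR for these genes and the other DivFB names were below it. They had the largest ratios of DivFB-S over DivFB-S/G2M among the genes named by rule, 10.7 (7.24 to 16.1) for Ccnd1 and 8.20 (6.32 to 10.7) for Ccnd2. Cyclin D3 (Ccnd3) differed, at 250, 162 and 253 CPM with 428 CPM in MyoFB-IMR, the highest level of these 4. The inhibitors of CDKs that were counted between DivFB-S and DivFB-S/G2M were instead lower in DivFB-S. Cdkn1b (p27) stood at 34.9, 118 and 116 CPM, Cdkn2c (p18) at 53.8, 152 and 46.1 CPM, and Cdkn2d (p19) at 17.5, 169 and 33.5 CPM. Of 14 genes of G1 cyclins, inhibitors and quiescence with enough signal (23 in the list), 2 were higher in DivFB-S than in DivFB-S/G2M and 4 lower, the fourth being Ccng2 at 10.2 against 68.2 CPM. Over all genes 2.13% were higher and 6.66% lower in that comparison.

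Of the 95 genes counted higher in DivFB-S than in DivFB-S/G2M, 82 were in none of the S phase, repair, mitosis and histone lists, Ccnd1 and Ccnd2 among them. Only 22 of the 95 were also counted higher in the tdT-high library, and 2 were counted lower there, so the levels below describe the tdT-negative library. Trpc6, a cation channel, stood at 189, 48.6 and 37.8 CPM, with 131 CPM in MyoFB-IMR. Aldoa, a glycolytic enzyme, stood at 58.2, 12.9 and 32.9 CPM, with 79.8 CPM in MyoFB-IMR, and Atp8b1, a phospholipid flippase, at 80.0, 17.2 and 39.5 CPM, with 65.3 CPM. For these genes DivFB-S/G2M was below the resting level, while DivFB-S was above it for Trpc6, near it for Atp8b1 and below it for Aldoa. Apex1, a base excision repair enzyme, stood at 68.4, 18.6 and 30.7 CPM and Cisd1, a mitochondrial membrane protein, at 90.2, 25.3 and 20.8 CPM, both above MyoFB-IMR (31.1 and 28.4 CPM). Emp1, a membrane protein, was highest in DivFB-G2M, at 10.2, 121 and 214 CPM, with 10.2 CPM in MyoFB-IMR. Among the few genes lower in DivFB-S/G2M than in DivFB-G2M were Kdm5b, a histone demethylase (122, 64.8 and 188 CPM), and Gpx7, a peroxidase of the endoplasmic reticulum (52.4, 81.0 and 189 CPM). Gpx7 stood at 50.6 CPM in MyoFB-IMR, so DivFB-S was at the resting level and DivFB-G2M above it.

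The summed values were followed to single cells with 3 sets of genes, given as UMIs per 10000 of the cell: 118 S phase and repair genes, 83 mitosis genes and 61 histone genes. In the S phase set the median cell stood at 81.3 (lowest 30.6, highest 169) for DivFB-S, 66.2 (19.6 to 149) for DivFB-S/G2M and 23.4 (9.93 to 40.5) for DivFB-G2M, against a median of 14.1 in resting cells. In the mitosis set the medians were 17.5 (5.26 to 70.7), 168 (68.7 to 328) and 69.6 (9.67 to 223), against 6.58. The mitosis ranges of DivFB-S and DivFB-S/G2M met only between 68.7 and 70.7. In the histone set the medians were 4.82 (0 to 45.3), 71.0 (0 to 226) and 6.97 (0 to 20.6), against 3.19, so that DivFB-S/G2M spanned everything from no histone UMI to the highest value of these names. With the 99th percentile of resting cells of the library as a mark (26.3, 21.3 and 14.6), 28 of 28 DivFB-S cells were above it for S phase genes, 13 of 28 for mitosis genes and 2 of 28 for histone genes. Of 71 DivFB-S/G2M cells, 70, 71 and 50 were above, and of 91 DivFB-G2M cells 28, 84 and 5. A mark of this kind cuts a range and makes no type: 21 of the DivFB-G2M cells lay within 10% of the S phase mark, and 2 of the S-named cells did.

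Within the names the sets ran in different directions. Across the 28 DivFB-S cells, the S phase and mitosis sets were higher in the same cells (Pearson's r 0.88, Spearman's rho 0.83). Across the 71 DivFB-S/G2M cells they were higher in different cells (-0.76 and -0.78), and the histone set went with the S phase set (Pearson's r 0.61) and against the mitosis set (-0.50). The cells of each value share 1 library, and the sets share each cell's total. The names were given from these same cells, and the part of that naming in these correlations was not tested. In the tdT-high library the S phase and mitosis sets had a Pearson's r of 0.86 across 11 DivFB-S cells and -0.43 across 16 DivFB-S/G2M cells. A cell's UMI total had a Pearson's r of 0.23 with the mitosis set in DivFB-S/G2M. The 11 DivFB-S/G2M cells below the library's median UMI count had medians of 67.8 for the S phase, 116 for the mitosis and 11.3 for the histone set, and the 60 others 65.2, 176 and 76.4. No doublet caller was run, and the part of doublets in these cells was not tested.

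**Figure D4:**
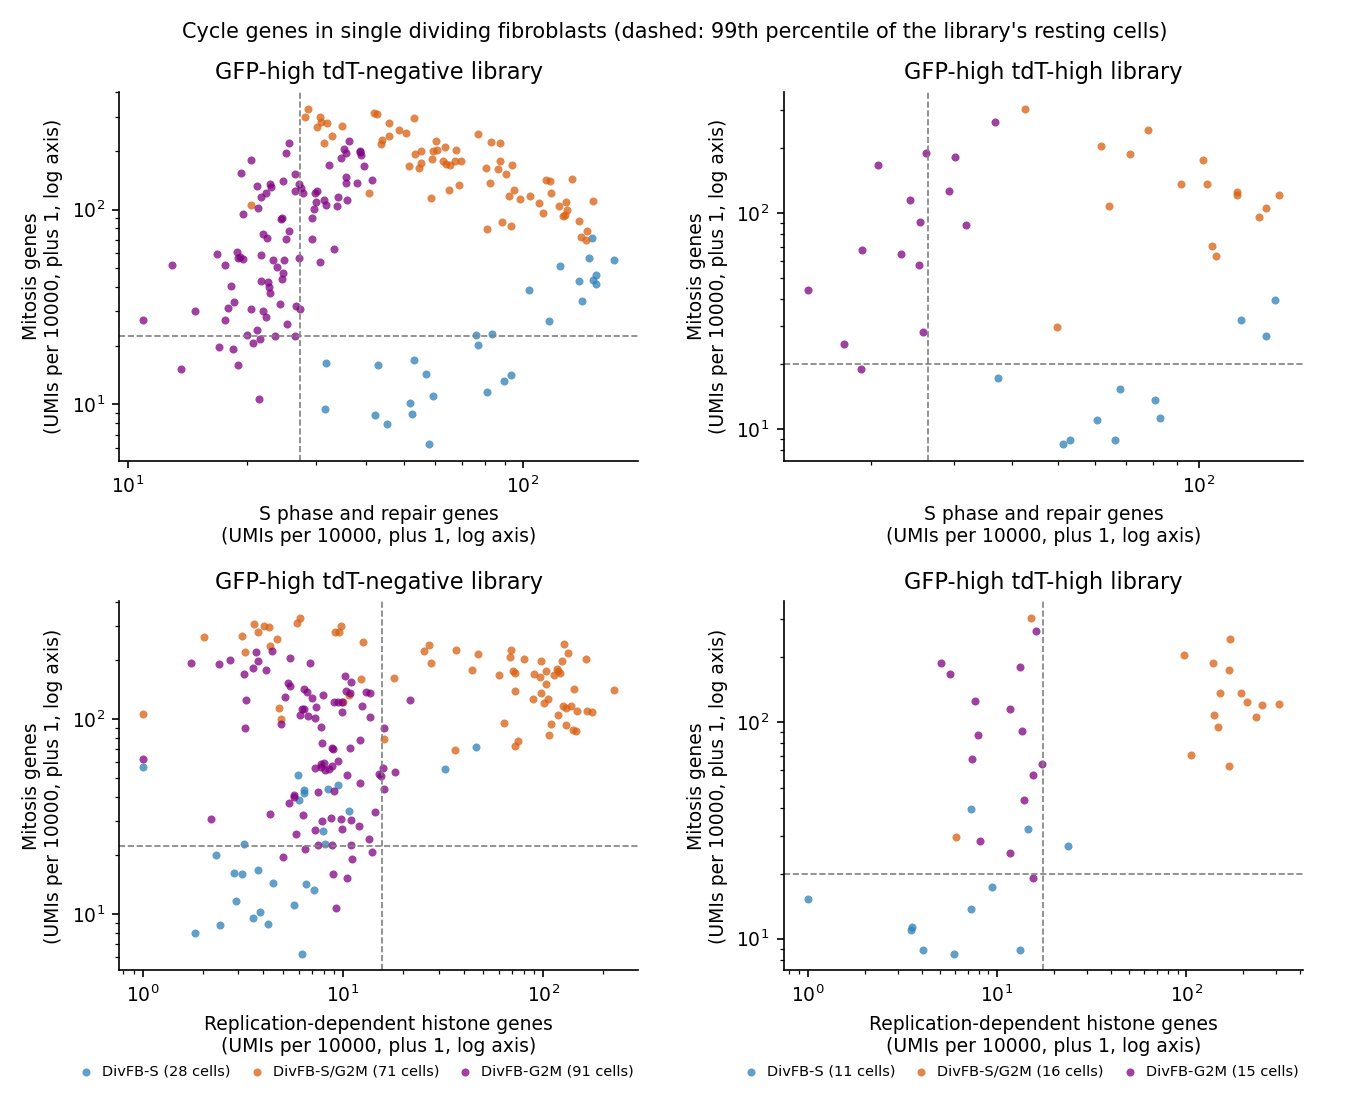
Each point is a dividing cell, coloured by its deposited name, in the tdT-negative (left) and tdT-high library (right); the y axis is the mitosis set and the x axis the S phase and repair set (top) or histone set (bottom), as UMIs per 10000 of the cell plus 1 on log axes, and dashed lines are the 99th percentile of resting cells. DivFB-S cells lie low on the mitosis axis (median 17.5 in the tdT-negative library), all but 1 of the DivFB-S/G2M cells above the dashed lines of the upper axes, and histone values of DivFB-S/G2M spread from 0 to 226 in that library.

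Few resting cells had an S phase profile of this strength. In the tdT-negative library 12 of 3157 resting cells reached the lowest DivFB-S value of the S phase set, and 1 reached the DivFB-S median. That cell, named MatFB-Im,Cuff, had 24561 UMIs and stood at 112 for the S phase, 17.1 for the mitosis and 1.22 for the histone set, which is the pattern of DivFB-S. In the tdT-high library 0 of 1469 resting cells reached the lowest DivFB-S value. There, 1 cell named MyoFB-Int stood at 177 for the histone set with 11604 UMIs, while its S phase (13.8) and mitosis (9.48) values were those of a resting cell. Both cells were picked out after their values were seen.

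The fibroblast labels of the S-named cells were checked against markers of lung cell types. The myofibroblast list of 18 genes summed to 15671 CPM in the S-named cells of the tdT-negative library and to 14178 CPM in the tdT-high library, and the matrix list of 22 genes to 11677 and 14184 CPM. In the GFP-low S-named cells these sums were 5724 and 21376 CPM, with 8942 CPM of the alveolar fibroblast list, which stood at 168 and 128 CPM in the GFP-high libraries. Epithelial markers (8 genes) summed to 2.87 and 4.93 CPM in the GFP-high S-named cells, with 6 and 5 of the 8 at 0, and Epcam at 0 in all S-named cells. Immune markers summed to 15.4 and 17.2 CPM, with Ptprc at 0, endothelial markers to 60.0 and 80.1 CPM, with Kdr at 0.359 and 0 CPM, and pericyte markers to 113 and 112 CPM. The endothelial, immune and pericyte sums were 125, 21.0 and 200 CPM in resting MyoFB-IMR cells of the tdT-negative library, all above those of the S-named cells.

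Genes of fibroblast identity were compared between the names. Of 15 myofibroblast genes with enough signal, 1 was higher and 1 lower in DivFB-S than in DivFB-G2M (median log2 ratio 0.10), and of 16 matrix genes 0 were, beside 5.36% and 4.65% of all genes. The myofibroblast share in the tdT-negative library is near that of all genes and is no result about the list. Of 15 myofibroblast genes in the tdT-high library 2 were higher and 4 lower, and of 19 matrix genes 1 in each direction. Over all 4553 genes with enough signal there, 8.46% were higher and 8.17% lower. The 2 genes of the tdT-negative library were Des, a filament of muscle-like cells (214, 92.0 and 99.8 CPM), and Hhip, an inhibitor of hedgehog ligands (16.0, 102 and 121 CPM, with 85.3 CPM in MyoFB-IMR). Hhip in the tdT-high library stood at 125, 172 and 221 CPM, a smaller difference in the same order. Tagln, an actin-binding protein of contractile cells, stood at 1513, 685 and 958 CPM and was counted higher in DivFB-S than in DivFB-S/G2M. The elastin gene Eln, by contrast, stood at 2907, 2673 and 1708 CPM, with 3239 CPM in MyoFB-IMR. Receptors and ligands of growth factors (20 genes) gave 0 of 15 counted in DivFB-S over DivFB-G2M. In DivFB-S/G2M over DivFB-G2M 1 of 16 was counted, Gli2, a hedgehog transcription factor (101 against 49.4 CPM). Over all genes 6.57% were higher in that comparison, so the share is near that of all genes and is no result about the list.

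With the cycle genes left out, most S-named cells resembled immature myofibroblasts. Each cell was given the resting type whose mean profile had the highest Pearson correlation with it over 234 genes that lead the resting types. MyoFB-IMR was nearest for 109 of the 129 S-named cells (84.5%, 77.1 to 90.3%), and some MyoFB type for 126. All 39 DivFB-S cells were nearest to MyoFB-IMR. In the tdT-negative library 58 of 71 DivFB-S/G2M cells were nearest to MyoFB-IMR, 12 to MyoFB-Int and 1 to AdvFB, and 79 of 91 DivFB-G2M cells were nearest to MyoFB-IMR. In the tdT-high library the count was 12 of 16 for DivFB-S/G2M and 10 of 15 for DivFB-G2M. The 3 GFP-low cells were nearest to MatFB-Type 2 in 2 cases and to MyoFB-Ter in 1. MyoFB-IMR cells make up only 30.8% and 30.9% of the tdT-negative and tdT-high libraries. The method is not even between types and libraries, however: it gave resting cells their own name in 75.1% of 5895 cases, 93.8% for MyoFB-IMR and 57.7% for MyoFB-Int, and called 47.2% of resting MyoFB-Int cells MyoFB-IMR in the tdT-negative library and 5.37% in the tdT-high one. For 21 S-named cells the next type was within 0.02.

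**Figure D5:**
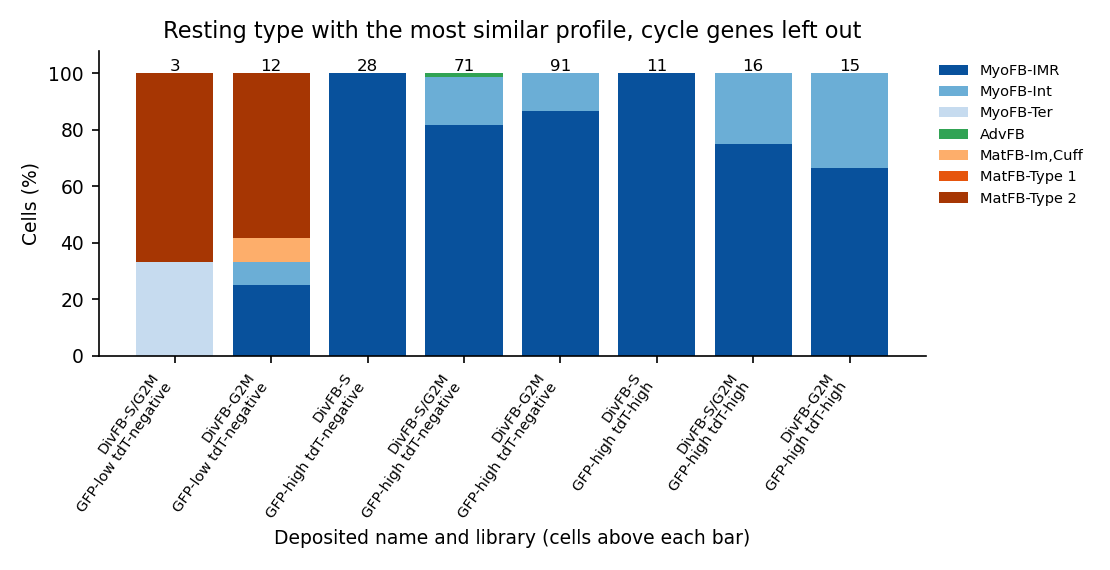
Percent of the cells of each DivFB name and library (x axis, number of cells above each bar) by the resting type with the most similar profile (colours), computed without cycle genes. Bars of the GFP-high libraries are mostly MyoFB-IMR, with 39 of 39 DivFB-S cells, and the 3 GFP-low DivFB-S/G2M cells are 2 MatFB-Type 2 and 1 MyoFB-Ter.

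The reporter genes of the sort were read in the S-named cells next. Pdgfra, the receptor whose locus carries the GFP reporter, stood at 110 CPM in the GFP-low, 474 CPM in the tdT-negative and 516 CPM in the tdT-high S-named cells, and the reporter transcript H2BGFP at 32.8, 229 and 251 CPM. The tdTomato transcript (TDT) stood at 0, 1.80 and 39.4 CPM, with a UMI in 51.9% of the tdT-high S-named cells. Each followed its gate. Fgf18, the growth factor whose locus carries the Cre, stood at 21.9, 48.8 and 40.7 CPM and the CreERT2 transcript at 0, 17.6 and 13.6 CPM, so the tdT-high cells were not above the tdT-negative ones for either.

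Between the GFP-high gates, the counted cycle genes of S-named cells were histone and mitosis genes, but most counted genes were in no cycle list. Of 4317 genes with enough signal, 51 (1.18%) were higher in the 27 tdT-high than in the 99 tdT-negative S-named cells and 39 (0.903%) lower, and the median log2 ratio over 13160 genes was -0.04. Of the 51 higher genes, 17 were in the histone list and 34 in none of the S phase, repair, mitosis and histone lists. Of the 39 lower genes, 12 were in the mitosis lists and 27 in none. Of 30 histone genes with enough signal, 17 were higher and 0 lower (median 1.06), and their summed level was 10689 against 5529 CPM. Within DivFB-S/G2M alone the histone sum was 16690 CPM in the tdT-high and 7100 CPM in the tdT-negative library, with 8056 CPM in the 3 GFP-low cells. Within DivFB-S it was 693 and 735 CPM, within DivFB-G2M 971 and 715 CPM and within MyoFB-IMR 437 and 362 CPM, so most of the difference was in DivFB-S/G2M. Of 17 mitotic cyclins and kinases 3 were lower in tdT-high cells, which are Ccnb1 (55.4 against 158 CPM), Cdc25b (23.4 against 50.3 CPM) and Plk1 (34.5 against 73.6 CPM). Kinetochore genes were lower in 3 of 23, spindle genes in 4 of 27, and the 6 S phase and repair lists gave no counted gene, with medians of 0.09 to 0.38. DivFB-S is 11 of the 27 tdT-high and 28 of the 99 tdT-negative S-named cells, and the part of this mix was not tested.

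Genes in none of the S phase, repair, mitosis and histone lists also differed between the gates, and the part of the mix of names in this was not tested. Cdk8, a kinase of the Mediator complex, stood at 2976 CPM in tdT-high and 810 CPM in tdT-negative S-named cells, a ratio of 3.68 (3.47 to 3.90), and resting MyoFB-IMR cells showed the same, at 4308 and 1256 CPM. Aspn, a gene for a small matrix proteoglycan, stood at 57.9 and 19.0 CPM (ratio 3.04, 2.01 to 4.59), with 58.8 and 8.59 CPM in MyoFB-IMR. Acta2, smooth muscle actin, stood at 509 and 1022 CPM, with 840 and 1008 CPM in MyoFB-IMR, and was counted lower in the tdT-high S-named cells. Mbd1, a methyl-CpG binding protein, stood at 14.8 and 80.4 CPM but at 43.6 and 36.5 CPM in MyoFB-IMR, so its difference was not seen in the resting cells. Ddb2, a sensor of ultraviolet damage in DNA, stood at 57.9 and 13.3 CPM, and DivFB-S carried it, with 118 CPM in the 11 tdT-high and 10.2 CPM in the 28 tdT-negative cells. Hspa1a, a heat shock gene, stood at 67.8 and 208 CPM, against 125 and 102 CPM in MyoFB-IMR. Eln stood at 4540 and 2730 CPM, which is under the 2-fold limit. The gate, the animals and the library cannot be told apart in these differences.

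The genes counted between names were looked up in the smaller tdT-high library. Of the 241 genes counted higher in DivFB-S than in DivFB-G2M, 132 were counted higher there too and 0 lower, and of the 209 lower, 102 were lower and 4 higher. Of the 295 genes higher in DivFB-S/G2M than in DivFB-G2M, 217 were counted there and 0 in the opposite direction, and of the 35 lower, 13 and 0. Of the 95 genes higher in DivFB-S than in DivFB-S/G2M, 22 were counted there and 2 in the opposite direction, the smallest share of the 6, and of the 297 lower, 191 and 1. Of all genes of that library with enough signal, 8.46% were higher and 8.17% lower in DivFB-S than in DivFB-G2M. For DivFB-S/G2M over DivFB-G2M the shares were 10.7% and 6.89%, and for DivFB-S over DivFB-S/G2M 5.5% and 8.64%. The names were given from these same cells in both libraries, so a shared direction is a description too. Of 39 histone genes with enough signal in that library, 39 were lower in DivFB-S than in DivFB-S/G2M, and 37 were higher in DivFB-S/G2M than in DivFB-G2M and 1 lower.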

How the data were processed

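Per the labels' protocols, live lung cells were sorted on GFP and tdTomato and each of 3 sorted populations gave 1 library with 10x Genomics 3' v3.1 chemistry; another collected population, positive for tdTomato only, is not analysed here. Per the submitters' processing notes, Cell Ranger 7.0.0 and mm10 were used. The authors deposited raw UMI counts for 31730 genes and 6142 cells, and a table with each cell's gate, cell type name, UMI count and percent of mitochondrial UMIs. Deposited cells hold at least 2504 genes and at most 19.3% mitochondrial UMIs; the cell filter, the naming of cell types and whether a library pools pups are not given in the sources used here. The libraries held 26586489, 68692834 and 34506226 UMIs in the GFP-low, the tdT-negative and the tdT-high library. All cells were kept, and doublets were neither called nor removed.

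For each name and library, the UMIs of its cells were added up and divided by their total (CPM). Levels have exact Poisson, ratios exact conditional binomial and shares exact Clopper-Pearson 95% intervals, which cover counting error only. With 1 library per gate no p-value was computed. A gene was counted where the higher name had 50 CPM or more with a UMI in 25% or more of its cells, the difference of CPM + 1 was 2-fold or larger, and the interval left out 1. List medians use genes with at least 10 UMIs in the names compared. The members and the 24 gene lists were chosen with earlier results of these data known. Named genes were the markers, list members by role, the gate genes, and the 10 highest and 10 lowest ratios per comparison of names (8 for gates), without unnamed, sex-linked, haemoglobin, mitochondrial and ribosomal protein genes. For the nearest resting type, the 50 leading genes of each type outside the cycle lists were used. Gene coordinates are those of GENCODE M21 (GRCm38), which matched 30176 symbols. The calculation was tested on simulated data. Computation used pandas 2.3.3, scipy 1.17.1 and numpy 2.4.6 under Python 3.11.15, and matplotlib 3.10.9. Counts were repeated with scaling by TMM (edgeR 4.0.16) or by size factors (DESeq2 1.42.0), with CPM averaged over cells, a minimum of 10 CPM or none, leaving out the 10% of cells with most UMIs, other libraries, and 100 genes or Spearman correlation for the nearest type.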

Additional observations from a re-analysis of the deposited data

Results flagged for a closer look

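A few genes were counted in opposite directions in the 2 GFP-high libraries. For DivFB-S over DivFB-G2M these were Gem, a small GTPase gene, with a log2 ratio of -1.10 in the tdT-negative and 2.78 in the tdT-high library (46.6 against 101 and 181 against 25.5 CPM), the stress gene Gadd45b (-1.41 and 1.42), the protocadherin gene Pcdh17 (-1.45 and 1.23) and the phosphodiesterase gene Pde10a (-1.37 and 1.33). For DivFB-S over DivFB-S/G2M they were the transcription factor gene Cebpb (-1.27 and 1.26), the palmitoyltransferase gene Zdhhc21 (1.63 and -3.61) and the transcription factor gene Glis3 (1.30 and -2.02). The tdT-high library held only 11 DivFB-S cells. Whether the libraries differ was not tested, since each is a single library.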

How the results depend on the processing

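Counts of genes moved mostly with the minimum level. With a minimum of 10 CPM and with none, the counts were 562 and 949 higher and 478 and 615 lower for DivFB-S over DivFB-G2M (241 and 209 as reported), 358 and 635 higher and 551 and 651 lower for DivFB-S over DivFB-S/G2M (95 and 297), 604 and 943 higher and 177 and 593 lower for DivFB-S/G2M over DivFB-G2M (295 and 35), and 238 and 467 higher and 163 and 269 lower between the gates (51 and 39). In the tdT-high library, with fewer cells, they were 385 and 372 for DivFB-S over DivFB-G2M, 249 higher for DivFB-S over DivFB-S/G2M, and 491 and 317 for DivFB-S/G2M over DivFB-G2M; the cause was not tested. TMM scaling left 60 genes higher in DivFB-S than in DivFB-S/G2M and 19 lower in DivFB-S/G2M than in DivFB-G2M, the latter 18 with size factors. This scaling shifted the median over all genes in DivFB-S over DivFB-S/G2M from 0.02 to -0.09 (log2). Without the 10% of cells with most UMIs, S-named cells were 1.86% of cells in the tdT-negative library and 1.10% in the tdT-high one. The nearest resting type was MyoFB-IMR for 101 S-named cells with 100 genes per type and 104 with Spearman correlation. Of 720 list counts under the alternatives 628 stayed within 1.5 times the reported count and 92 moved. These counts were made per direction and cannot show a change of sign. For DivFB-S over DivFB-S/G2M, counted genes of nucleotide supply and chromatin assembly had opposite directions in the GFP-high libraries. Of 120 marker ratios 106 stayed within their counting interval and 0 changed sign as counted. In the tdT-high library, however, the ratio of Top2a in DivFB-S over DivFB-G2M was 0.671. That of Tyms in DivFB-S over DivFB-S/G2M was 0.670 there (1.28 as reported), and that of Mki67 in DivFB-S/G2M over DivFB-G2M 0.967. No paired analysis was possible because each gate has 1 library and the groups share only replicate number 1. Depth limits the small groups most: DivFB-S had 687305 UMIs in 28 cells, so a gene without a UMI there may reach 4.36 CPM.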
